A study of Homo sapiens with 6 samples.

Results

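The 9 genes described here encode transcription factors that growth signals act on: MYC and its partner MAX, the AP-1 subunits JUN, JUNB, JUND, FOS, FOSL1 and FOSL2, and EGR1. They were chosen by name, with earlier results of these data known, and are 9 of the 18372 genes tested. For each symbol the probe set (the group of probes that reads 1 gene) was selected on the highest mean signal over all 6 arrays, but each of the 9 had only 1 probe set, so that step decided nothing. The 6 samples were A375 cells, an established human melanoma line with an activating BRAF mutation. In 3 of them the cells had been transfected with siFAH, an siRNA against the tyrosine-degrading enzyme FAH, and in the other 3 with negative control siRNA, and all were taken at 72 h. Each sample was a biological replicate read on 1 Affymetrix Human Gene 1.0 ST array. The labels do not say which of the study's siRNA sequences against FAH was used, and the comparison covers a single cell line and time.

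MYC and MAX bind DNA as a pair at E-boxes and activate genes of ribosome production, nucleotide synthesis and growth. AP-1 is a dimer of a JUN protein with a FOS protein or with another JUN protein. EGR1 is a zinc finger protein. Several of these genes are immediate-early genes, whose short-lived transcripts appear soon after ERK signaling or serum stimulation and do not need new protein for it. In melanoma cells with mutant BRAF the ERK pathway is constantly active, and FOSL1 and MYC are among the genes it maintains.

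Signals are the deposited log2 values, so a difference of 1 is a 2-fold change. FAH itself read 4.92, 4.60 and 4.92 in siFAH arrays, against 5.48, 5.59 and 5.68 in control siRNA arrays, a difference of -0.77 (standard error, SE, 0.10). The array medians over all probe sets ran from 5.003 to 5.038 in siFAH arrays and from 4.922 to 4.996 in control siRNA arrays. A probe set is called dim here where its mean was under 4.99, the median over all probe sets. Of the melanocyte lineage markers SOX10, MITF and S100B were not dim, and the pigment cell genes TYR, TYRP1, MLANA and PMEL were. None of 8 measured lineage markers passed the limma test (at an unadjusted p under 0.05 SOX10 was lower and MLANA higher). The log2 of the summed signal of 7 leukocyte markers was 8.75 to 8.76 in siFAH arrays and 8.44 to 8.53 in control siRNA arrays. In that list the lysosomal protein CD68 was called higher (0.49) and the lysozyme gene LYZ lower (-0.51), and CD3D, PTPRC and MS4A1 were dim. That of 5 keratinocyte markers was 6.85 to 7.01 in siFAH arrays and 6.63 to 6.84 in control siRNA arrays, with KRT10 called higher. The sums of 6 dedifferentiated melanoma markers were 8.89 to 9.01 in siFAH arrays and 9.18 to 9.25 in control siRNA arrays, with AXL called lower (-0.55) and EGFR higher (0.31). Those of 4 endothelial markers were 5.83 to 5.86 in siFAH arrays and 5.74 to 5.80 in control siRNA arrays, with 0 called by limma, also at an unadjusted p under 0.05. All 4 were dim, with a highest mean signal of 4.22. The sums of the melanocyte, fibroblast and unrelated tissue lists overlapped or touched between the groups. Their part in the results was not tested.

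MYC rose after FAH silencing and was the most changed of the 9 factors, JUNB rose less, and none of the other factors passed the test. The threshold for a call was an adjusted p under 0.05 in limma, a moderated linear model fitted to all genes. Of the 9 factors 2 were called higher, while 3.48% of all genes were, and 0 were called lower, while 6.38% of all genes were. At an unadjusted p under 0.05 limma passed 4 factors, MYC, JUN and JUNB higher and FOSL1 lower, while 10.8% of all genes were higher and 15.3% lower at that limit. The methods' t-test, which was not their way of selecting array genes, passed 3, MYC and JUNB higher and FOSL1 lower. By that test 8.64% of all genes were higher and 12.8% lower, and no factor passed it after adjustment. The siFAH and control siRNA arrays did not overlap for 4 of the 9, MYC, MAX, JUNB and FOSL1, while 32.0% of all genes had such groups. Of the 9 changes 7 were positive and 2 negative, with a median of 0.11, while the median of all genes was 0.0050. Exact permutation of 3 arrays against 3 cannot give a p under 0.1, so single genes were judged by limma.

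**Figure D1:**
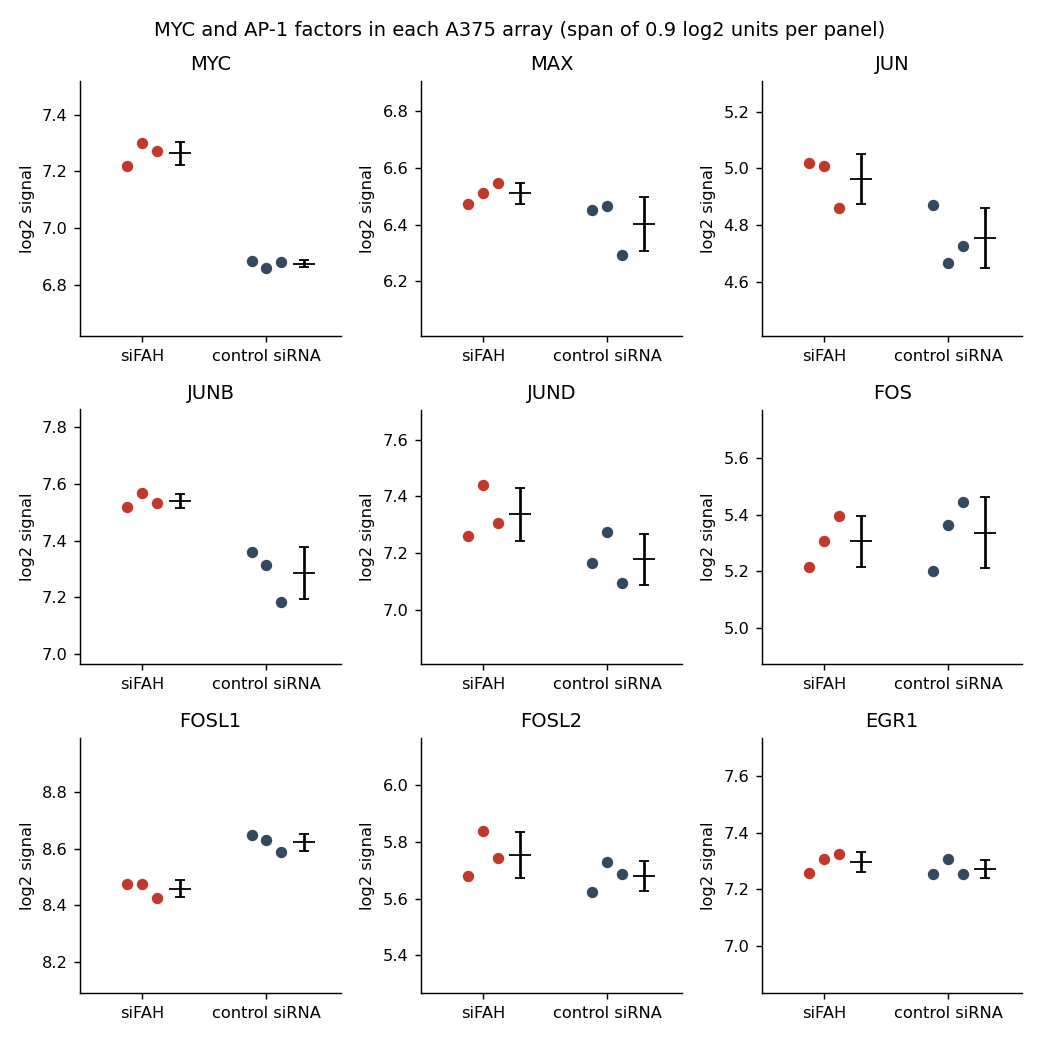
Log2 signal (vertical axis) of each of the 9 factors in every array, siFAH in red and control siRNA in dark blue, with the mean and SD (n = 3) beside the points. The siFAH arrays lie above the control siRNA arrays for MYC, MAX and JUNB and below them for FOSL1, and the groups overlap for the other factors.

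MYC (probe set 8148317) encodes the factor that pairs with MAX and drives cell growth. Its log2 signal was 7.22, 7.30 and 7.27 in siFAH arrays, against 6.88, 6.86 and 6.88 in control siRNA arrays. Every siFAH array was higher, and the gap between the nearest arrays of the groups, 0.34, was wider than the spread within either. The log2 fold change was 0.39 (SE 0.06, limma adjusted p = 0.00597), which is 1.31-fold, with a 95% interval of 0.25 to 0.53. As each array was left out in turn it ran from 0.37 to 0.41 and was called every time. Each array reads many cells at once, so a change in all cells and a larger one in some of them cannot be told apart.

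MAX (probe set 7979671), the partner that MYC needs to bind DNA, read 6.47, 6.51 and 6.55 in siFAH arrays, against 6.45, 6.47 and 6.29 in control siRNA arrays. The siFAH arrays lay above the control siRNA arrays by as little as 0.0066, and control siRNA replicate 3 was the low one. The difference of 0.11 (SE 0.07, limma adjusted p = 0.377) did not pass, with a 95% interval of -0.052 to 0.27. It was 0.053 without control siRNA replicate 3 and 0.054 with each array centred on its median.

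JUNB (probe set 8026047), a JUN protein that often opposes JUN on growth genes, read 7.52, 7.57 and 7.53 in siFAH arrays, against 7.36, 7.31 and 7.18 in control siRNA arrays. The siFAH arrays agree closely and all were higher, while the control siRNA arrays were spread more widely. The log2 fold change was 0.25 (SE 0.07, limma adjusted p = 0.0473), or 1.19-fold, with a 95% interval of 0.098 to 0.41. This call was close to the limit. The adjusted p was 0.0833 without siFAH replicate 1, 0.136 without siFAH replicate 2, 0.125 without siFAH replicate 3, 0.106 without control siRNA replicate 2 and 0.127 without control siRNA replicate 3, and only without control siRNA replicate 1 was JUNB still called. It was also lost with each array centred on its median (0.0967).

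JUN (probe set 7916609), the founding AP-1 subunit, read 5.02, 5.01 and 4.86 in siFAH arrays, against 4.87, 4.67 and 4.73 in control siRNA arrays. The groups overlapped, since siFAH replicate 3 was just under control siRNA replicate 1. Its difference was 0.21 (SE 0.08, adjusted p = 0.128), and this probe set was dim, with a mean under the median of all probe sets. With arrays weighted by their quality it passed the test (0.26, adjusted p = 0.0306). JUND (probe set 8035445), which many cells express steadily and which tends to restrain growth, read 7.26, 7.44 and 7.31 in siFAH arrays, against 7.16, 7.27 and 7.10 in control siRNA arrays. Here too the groups overlapped, with a difference of 0.16 (SE 0.08, adjusted p = 0.222), which was 0.105 with each array centred on its median. All 3 JUN genes had positive differences, under the 3 other scalings too, and that of JUNB was called. As deposited, 9449 of 18372 genes had positive differences.

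The bases before the starts of the 3 JUN genes were chosen because their signals lay on the same side. A link between the bases and the changes was not tested. The bases are shown with matches to AP-1 and related motifs in capitals. They are RefSeq sequences of GRCh38.p14, 250 bases before the start, written 5′ to 3′ along the gene: JUN on the minus strand at chr1:58784048-58784297, JUNB on the plus strand at chr19:12791236-12791485, and JUND on the minus strand at chr19:18281623-18281872.
JUN: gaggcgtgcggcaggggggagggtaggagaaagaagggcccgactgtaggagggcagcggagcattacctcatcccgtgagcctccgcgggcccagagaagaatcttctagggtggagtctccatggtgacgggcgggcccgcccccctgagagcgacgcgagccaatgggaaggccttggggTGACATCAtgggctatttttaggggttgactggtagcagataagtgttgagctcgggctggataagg
JUNB: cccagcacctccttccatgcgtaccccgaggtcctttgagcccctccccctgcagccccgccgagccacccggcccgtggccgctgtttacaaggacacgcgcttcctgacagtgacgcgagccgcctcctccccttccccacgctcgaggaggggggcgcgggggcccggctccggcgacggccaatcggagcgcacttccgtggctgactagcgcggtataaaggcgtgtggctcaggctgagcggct
JUND: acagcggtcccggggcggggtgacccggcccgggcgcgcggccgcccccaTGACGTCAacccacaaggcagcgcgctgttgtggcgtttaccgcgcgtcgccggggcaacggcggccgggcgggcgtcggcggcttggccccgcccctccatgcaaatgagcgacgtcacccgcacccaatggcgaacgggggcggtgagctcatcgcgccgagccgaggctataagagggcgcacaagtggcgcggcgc

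Both strands were searched for TGANTCA (the AP-1 site), TGACATCA (its variant), TGACGTCA (the CRE, bound by CREB and ATF factors), CACGTG (the E-box of MYC and MAX) and the serum response element. The search covered the 250 bases of 7 of the 9 factors, and MYC and FOSL1 were not analysed here. JUN held TGACATCA from 67 to 60 bases before its start, a form found in 2.37% of 35116 promoters of that length. JUND held TGACGTCA from 200 to 193 bases before its start, found in 1.65% of them. No match was found in JUNB, FOS, FOSL2 or either promoter entry of MAX, which says only that these letters are not in the window. TGANTCA and CACGTG, found in 6.57% and 6.34% of all promoters, matched in none of the 7 genes.

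FOSL1 (probe set 7949532) encodes FRA1, the FOS protein that ERK activity stabilizes. It read 8.48, 8.48 and 8.42 in siFAH arrays, against 8.65, 8.63 and 8.59 in control siRNA arrays. All siFAH arrays were lower, by a gap of 0.11 at the nearest. Its log2 fold change was -0.16 (SE 0.06, limma adjusted p = 0.136), with a 95% interval of -0.305 to -0.022, and it did not pass. After cyclic loess between arrays it was -0.076, and after quantile normalization -0.096.

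FOSL2 (probe set 8041048), which encodes FRA2, read 5.68, 5.84 and 5.74 in siFAH arrays, against 5.62, 5.73 and 5.69 in control siRNA arrays. FOS (probe set 7975779), the classical serum-induced partner of JUN, read 5.21, 5.31 and 5.39 in siFAH arrays, against 5.20, 5.36 and 5.45 in control siRNA arrays. The groups overlapped in both genes, over less of their range in FOSL2 than in FOS. The difference was 0.075 for FOSL2 (95% interval -0.083 to 0.23, adjusted p = 0.546 from limma), and it was 0.032 without siFAH replicate 2 and 0.020 with each array centred on its median. For FOS it was -0.031 (95% interval -0.21 to 0.15, adjusted p = 0.849), and its sign turned when siFAH replicate 1 (0.015) or control siRNA replicate 3 (0.024) was left out.

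EGR1 (probe set 8108370), a zinc finger factor induced through serum response elements, read 7.26, 7.31 and 7.33 in siFAH arrays, against 7.25, 7.31 and 7.25 in control siRNA arrays. The groups overlapped and no array stood out. The difference was 0.025 (SE 0.06, adjusted p = 0.843), and its 95% interval of -0.12 to 0.17 leaves out a change as large as that of MYC. With each array centred on its median the sign turned, to -0.029, and as each array was left out the difference ran from 0.011 to 0.046. The 250 bases before its start, on the plus strand at chr5:138465229-138465478 of GRCh38.p14 from RefSeq, are shown because they hold the element that serum response factor binds, in capitals.
EGR1: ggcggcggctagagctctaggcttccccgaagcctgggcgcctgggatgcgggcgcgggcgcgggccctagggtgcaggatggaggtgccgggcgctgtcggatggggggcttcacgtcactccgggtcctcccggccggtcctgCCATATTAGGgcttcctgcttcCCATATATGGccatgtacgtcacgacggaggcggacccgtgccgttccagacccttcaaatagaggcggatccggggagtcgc

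This window held 2 serum response elements, at 105 to 96 and 83 to 74 bases before the start, while 1.16% of all promoters held any. SRF, the factor that binds them, had a log2 fold change of 0.049 (adjusted p = 0.704), and its cofactors of the ELK family, ELK1, ELK3 and ELK4, were not called.

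**Figure D2:**
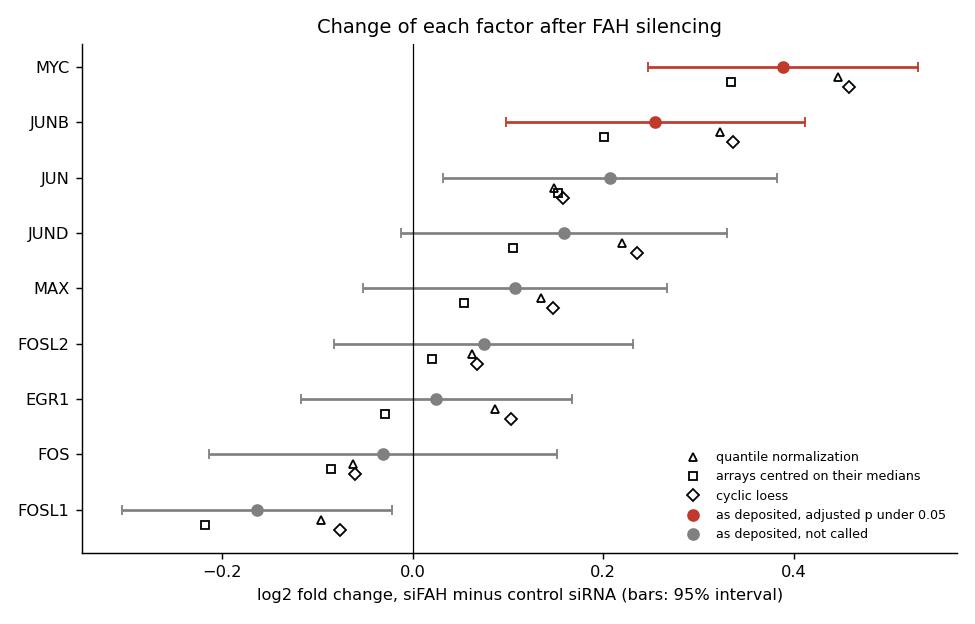
Change in log2 signal of each factor (horizontal axis, siFAH minus control siRNA) with its 95% interval, red where the adjusted p was under 0.05 and gray otherwise. Open symbols give the value after 3 other scalings of the arrays, from 0.33 to 0.46 for MYC and from -0.22 to -0.076 for FOSL1, and only EGR1 changed sign (-0.029 with arrays centred on their medians).

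To ask whether members of 1 family differed in their change, the log2 difference of 2 genes was taken within each array and compared between the groups. Of 16 such pairs, 15 were all pairs of the AP-1 subunits and the other was MYC with MAX. FOSL1 and the JUN genes had changes of opposite sign. JUNB minus FOSL1 was -0.956 to -0.892 in siFAH arrays and -1.41 to -1.29 in control siRNA arrays, a change of 0.42 (SE 0.04). The same change was 0.37 (SE 0.06) for JUN minus FOSL1 and 0.32 (SE 0.07) for JUND minus FOSL1. FOSL1 minus FOSL2 was 2.64 to 2.80 in siFAH arrays and 2.90 to 3.03 in control siRNA arrays, a change of -0.24 (SE 0.06). MYC minus MAX was 0.725 to 0.787 in siFAH arrays and 0.393 to 0.589 in control siRNA arrays, a change of 0.28 (SE 0.06). The arrays of the groups did not overlap in these 5 pairs, nor in JUND minus FOSL2 (0.084, SE 0.04), so in 6 of 16. Of single genes 32.0% had groups that did not overlap, and the share over all pairs of genes was not taken. All of the 6 but MYC minus MAX and JUND minus FOSL2 hold FOSL1, so they are not separate observations. The exact permutation p, two-sided, was 0.1 for each of the 6, the smallest that 3 arrays against 3 can give, and 0.267 when adjusted over the 16 pairs, so none passed. The change of JUN minus JUNB was -0.048 (SE 0.08), but -0.17 after quantile normalization and -0.18 after cyclic loess. That of JUN minus JUND was 0.048 (SE 0.12), and its sign turned after quantile normalization (-0.071) and cyclic loess (-0.077). After cyclic loess JUN minus FOSL1 was 0.23 and FOSL1 minus FOSL2 was -0.14.

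**Figure D3:**
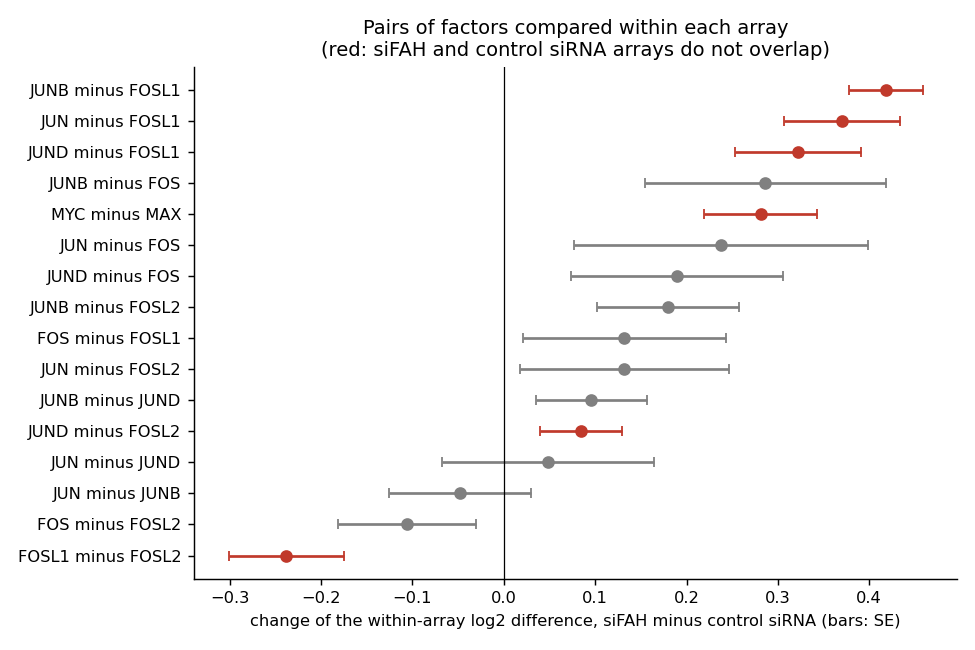
Change of the within-array log2 difference of 2 factors, siFAH minus control siRNA (horizontal axis), for 16 pairs, with the standard error (n = 3 arrays each). Red points are the 6 pairs whose arrays did not overlap between groups, from -0.24 for FOSL1 minus FOSL2 to 0.42 for JUNB minus FOSL1. Of single genes 32.0% had groups that did not overlap.

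Brighter genes tended to read lower in siFAH arrays, which bears on how these changes are read. Of the 9 factors 5 lay in the brightest 2 of 10 equal classes of mean signal, namely MYC, JUNB, JUND, EGR1 and FOSL1. In these classes together the median change was -0.097, with 6.78% of genes called higher and 15.9% called lower. The differences of MYC, JUNB, JUND and EGR1 were positive against that median, and that of FOSL1 was -0.16. For the less bright factors, the median change was 0.048 in the class of JUN, 0.025 in that of FOS, 0.0027 in that of FOSL2 and -0.065 in that of MAX. How far the scaling of the arrays made this trend was not tested.

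The genes with the likest pattern over the 6 arrays were found for MYC and JUNB by Pearson's correlation, as a description. For MYC they were ITM2B, a membrane protein (r = 0.998), and the transcription factors SOX2 (0.997) and SOX4 (0.995), with log2 fold changes of 0.40, 0.83 and 0.61. For JUNB they were the matrix glycoprotein EMILIN1 (0.998), the RNA polymerase subunit POLR2F (0.998) and the peptide hormone EDN3 (0.997), with changes of 0.27, 0.37 and 0.40. With 6 arrays in 2 groups any gene that changed the same way correlates highly, and 1% of all genes had an r above 0.959 with MYC and above 0.963 with JUNB.

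The other genes of the MYC and MAX network were mixed. Of 15 measured, 1 was higher and 1 lower (6.67% each), while 3.48% of all genes were higher and 6.38% lower. MXD4, which competes with MYC for MAX, read on average 6.47 ± 0.09 in siFAH arrays and 6.21 ± 0.03 in control siRNA arrays (SD, n = 3 each), with a change of 0.26 (adjusted p = 0.0432 from limma). RUVBL2, an ATPase of MYC's coactivator complexes, averaged 7.90 ± 0.12 in siFAH arrays and 8.19 ± 0.04 in control siRNA arrays (SD, n = 3 each), with a change of -0.29 (adjusted p = 0.0418). Both calls were weak: that of MXD4 was lost whichever array was left out (adjusted p 0.0527 to 0.146), and that of RUVBL2 held only without siFAH replicate 1 and otherwise had an adjusted p of 0.0561 to 0.151. RUVBL2 also lost its call after quantile normalization (-0.22) and cyclic loess (-0.20). The paralogs MYCN and MYCL were not called, at 0.29 (adjusted p = 0.215) and -0.056 (adjusted p = 0.722).

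Among 13 other AP-1 proteins and dimer partners 1 was higher and 1 lower (7.69% each), while 3.48% of all genes were higher and 6.38% lower. DDIT3, the stress factor CHOP, fell. It read 5.21, 5.22 and 5.07 in siFAH arrays, against 5.65, 5.78 and 5.78 in control siRNA arrays, a log2 fold change of -0.57 (SE 0.07, limma adjusted p = 0.00234), with no overlap. MAF, a large bZIP factor, had 0.32 (SE 0.08, adjusted p = 0.0373), and leaving out siFAH replicate 1 kept this call while leaving out any other array lost it (0.0798 to 0.136). FOSB had 0.037 and ATF3 had -0.15, and neither was called.

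The immediate-early genes did not move as a block. NR4A1, an orphan nuclear receptor induced by the same signals as EGR1, read 7.36, 7.23 and 7.19 in siFAH arrays, against 8.02, 8.06 and 8.05 in control siRNA arrays. The groups did not come near each other, and the log2 fold change was -0.78 (SE 0.07, limma adjusted p = 0.000575), the largest of this list. Its paralogs NR4A2 (0.22, adjusted p = 0.165) and NR4A3 (-0.0027) did not pass. Of 24 measured genes 3 were lower and 1 was higher, that is 12.5% and 4.17%, while 6.38% and 3.48% of all genes were. The matricellular protein CCN2 (-0.33, adjusted p = 0.0222) and the survival factor MCL1 (-0.25, adjusted p = 0.0414) were the other lower ones, and the prostaglandin enzyme PTGS2, read by a dim probe set, was the higher one (0.47, adjusted p = 0.0122). CCN2 was not called without siFAH replicate 3 (0.0893), control siRNA replicate 2 (0.0857) or control siRNA replicate 3 (0.0639), and MCL1 was not called whichever array was left out (0.0858 to 0.114), nor after quantile normalization (0.0641) or cyclic loess (0.153). The median of the list was -0.075.

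Among target genes of MYC both directions occurred. Of 40 measured 7 were lower (17.5%) and 1 was higher (2.5%), which left 32 without a call, and the median was -0.16. Of the 40 changes 31 were negative and 9 positive. Of all genes 6.38% were lower and 3.48% higher. The brightest 2 classes, which held 31 of the 40 genes, had 15.9% of genes lower and 6.78% higher, with a median of -0.097. How far signal level made the shares of the MYC targets was not tested. SHMT2, a mitochondrial enzyme of serine use, read 8.68, 8.58 and 8.44 in siFAH arrays, against 9.18, 9.26 and 9.39 in control siRNA arrays, a log2 fold change of -0.71 (SE 0.08, limma adjusted p = 0.00168). The cell cycle kinase CDK4 had -0.57 (adjusted p = 0.0128) and the growth regulator PA2G4 had -0.43 (adjusted p = 0.00524). HSPE1, a mitochondrial chaperonin, was the higher one (0.57, adjusted p = 0.0151), whereas its partner HSPD1 had -0.046 and was not called. The 7 lower genes became 3 without siFAH replicate 3 and 4 without control siRNA replicate 3, and CDK4 had an adjusted p of 0.0529 without siFAH replicate 3. HSPE1 was not called without siFAH replicate 2 (0.0517), siFAH replicate 3 (0.0520) or control siRNA replicate 3 (0.0651).

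Known targets of AP-1 went both ways. Of 25 measured 7 were lower (28%) and 2 were higher (8%), while 6.38% of all genes were lower and 3.48% higher. The median of the list was 0.00066. The collagenase MMP1, a classical AP-1 target, averaged 5.34 ± 0.07 in siFAH arrays and 4.52 ± 0.18 in control siRNA arrays (SD, n = 3 each). Its change was 0.82 (SE 0.09, limma adjusted p = 0.00144), and its probe set was dim. The cytokine IL24 averaged 5.24 ± 0.21 in siFAH arrays and 6.12 ± 0.14 in control siRNA arrays (SD, n = 3 each), a change of -0.88 (SE 0.11, adjusted p = 0.00198). The thioredoxin reductase TXNRD1 had -0.46 and the integrin subunit ITGA5 had -0.50. The matrix protease MMP3 (0.00066) and the collagenase MMP13 (0.10), both dim, were not called. The 2 higher genes became 1 without control siRNA replicate 2 or control siRNA replicate 3.

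**Figure D4:**
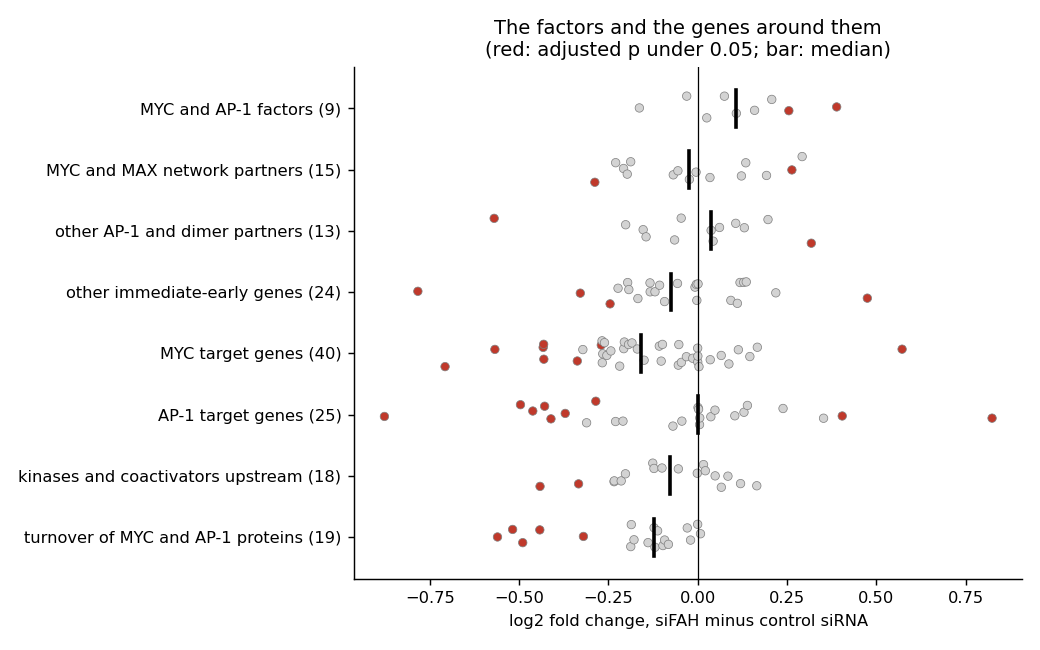
Change in log2 signal (horizontal axis, siFAH minus control siRNA) of the 9 factors and of 7 groups of genes around them, with the number of measured genes in parentheses. Points are single genes, with the called ones in red, and the black bar is the median, from -0.16 for MYC target genes to 0.11 for the 9 factors.

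Upstream of the factors, 2 of 18 measured kinases and coactivators were lower (11.1%) and 0 were higher (at an unadjusted p under 0.05 by limma 1 was higher, ELK4, and the methods' t-test called 0 after adjustment). Among all genes 6.38% were lower and 3.48% higher. The brightest 2 classes, which held 7 of the 18, had 15.9% of genes lower and 6.78% higher. Both of the lower kinases were RSK kinases, which ERK activates and which phosphorylate FOS. RPS6KA3 read 8.31, 8.20 and 8.21 in siFAH arrays, against 8.65, 8.61 and 8.78 in control siRNA arrays (log2 fold change -0.44, SE 0.07, limma adjusted p = 0.00594). RPS6KA1 had -0.33 (adjusted p = 0.0434), which was not kept without siFAH replicate 2 (0.141), siFAH replicate 3 (0.112), control siRNA replicate 1 (0.0695) or control siRNA replicate 3 (0.136), nor after quantile normalization or cyclic loess. The JNK genes MAPK8 and MAPK9, each at -0.23, were not called.

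Of 19 measured genes that set the turnover of MYC and AP-1 proteins 5 were lower (26.3%) and 0 were higher (0 by limma at an unadjusted p under 0.05, and 0 by the methods' t-test after adjustment), with a median of -0.12. Over all genes 6.38% were lower and 3.48% higher. Of the 19 genes 12 lay in the brightest 2 classes, where 15.9% of genes were lower and 6.78% higher. SKP2, a ubiquitin ligase subunit that acts on MYC, read 7.83, 7.74 and 7.67 in siFAH arrays, against 8.24, 8.28 and 8.40 in control siRNA arrays, and its log2 fold change was -0.56 (SE 0.07, limma adjusted p = 0.00251). The mitotic kinases PLK1 (-0.52, adjusted p = 0.0119) and AURKA (-0.49, adjusted p = 0.00325), which protect MYC family proteins, and the deubiquitinase USP28 (-0.44, adjusted p = 0.0118) were lower too. The other lower gene, named after its value was seen, was the ubiquitin ligase HUWE1 (-0.32, adjusted p = 0.0248). SKP2, PLK1 and AURKA vary with the cell cycle. FBXW7, the ligase subunit that marks MYC and JUN for breakdown, had -0.020 and was not called. PLK1 had an adjusted p of 0.0511 without siFAH replicate 3, and without it the 5 lower genes became 3.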

How the data were processed

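RNA of 3 siFAH and 3 control siRNA samples of A375 cells was read on 1 array each. The authors deposited log2 signals made by RMA with global scaling, 1 per probe set, whose version and probe annotation build are not given in the sources used here. The sources differ on the RNA extraction and labeling kits. Because the scale is relative, no level was compared between genes beyond a division into dim probe sets and classes of mean signal, and precision is limited by having 3 arrays a group.

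Of 28829 probe sets, 19291 carried 1 gene symbol, 1735 several and 7803 none in the platform annotation, and those with 1 gave 18372 genes by the brightest probe set. Gene IDs of 19260 were matched to RefSeq and changed no symbol. Signals were fitted with limma 3.58.1 in R 4.3.3 (lmFit and eBayes), siFAH minus control siRNA, with Benjamini-Hochberg adjustment over all genes and calls at an adjusted p under 0.05. The script was tested on simulated data. Plots used matplotlib 3.10.9 (Python 3.11.15).

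The 9 factors and the lists around them were chosen with earlier results of these data known. Named in each list were the called genes with the largest changes, at most 4, and for MYC and JUNB the 3 genes of highest correlation. Other list genes named in the text were chosen after their values were seen. Alternatives were 3 other scalings, a filter on dim genes, array weights, eBayes with trend and robust, all probe sets or their mean per gene, a replicate block, the methods' t-test and leaving out each array. SAM with a fold change limit, by which the methods selected array genes, was not run. The t-test is the one they name for mRNA differences in general.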

Additional observations from a re-analysis of the deposited data

How the results depend on the processing

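MYC kept its direction in every alternative and its call in all but the methods' t-test (0.389, adjusted p = 0.0663 after Benjamini-Hochberg). The change of JUNB was positive throughout, and its call was lost with arrays centred on their medians (0.201) and, at 0.255, with the t-test, the replicate block and all probe sets. JUN passed with array weights (0.261). EGR1 changed sign with centring (-0.0291), and FOS without siFAH replicate 1 (0.0146) or control siRNA replicate 3 (0.0237). The cause was not tested. As each array was left out, JUNB ran from 0.203 to 0.292 and FOS from -0.0987 to 0.0237, the called factors were 1 to 2, and over all genes 267 to 653 were higher and 390 to 1192 lower. The lowest counts were without siFAH replicate 2 (271 higher and 440 lower), siFAH replicate 3 (267 and 390), control siRNA replicate 2 (267 and 472) and control siRNA replicate 3 (289 and 438).

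Centring gave 416 genes higher and 1678 lower, so that 80.1% of calls were lower, against 64.7% as deposited (639 and 1172). It moved the median of all genes to -0.0492. Array weights gave 1170 higher, and the t-test 6 higher and 8 lower. Same-numbered arrays did not deviate together (r = -0.155, -0.0891 and -0.274). With 3 arrays a group this cannot show whether the samples were paired, and the labels do not say. The replicate block called 299 genes higher and 462 lower and 1 factor, MYC (0.389, adjusted p = 0.0306), and with it MYC targets were 4 lower, immediate-early genes 1 lower, upstream kinases 1 lower, and network and other AP-1 genes 0 higher. Called factors were 0 with the t-test and 1 with centring and with all probe sets. All list counts were 0 with the t-test. MYC targets were 13 lower without dim genes and with trend and robust, and 3 to 10 lower and 0 to 1 higher as arrays were left out. Network genes, 1 in each direction as reported, ran from 0 to 2 over all settings, as did other AP-1 genes. Upstream kinases were 1 lower after quantile normalization, cyclic loess and with all probe sets, 4 with array weights, and 1 to 3 as arrays were left out. AP-1 targets were 4 higher with array weights and 1 without dim genes, and 1 to 2 as arrays were left out. Immediate-early genes were 0 higher without dim genes, and 1 to 2 lower as arrays were left out, and turnover genes were 3 to 5 lower. Of the pairs, JUN minus JUNB was -0.174 after quantile normalization and -0.178 after cyclic loess, JUN minus FOSL1 was 0.245 and 0.234, and after cyclic loess JUND minus FOSL2 was 0.168 and FOSL1 minus FOSL2 -0.144.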
